A study of Mus musculus with 7 samples.

Results

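Transcripts of 32 NRF2 and glutathione defence genes were followed in whole abdominal aortas, chosen by name from the 32544 genes of the deposited table. All 32 names were found, and 30 of them were among the 12636 genes expressed highly enough to be tested. The mice were male Apoe-/- animals, which lack apolipoprotein E and develop plaques on a fatty diet. All had eaten a high-fat diet for 12 weeks and had received 50 mg/kg of lipid nanoparticles (LNP) into a vein 1 time a week. The treated group received ITA-LNP (3 libraries), where ITA is read from the series title as itaconate, a metabolite made from the TCA cycle in activated macrophages, and the other group received control-LNP (4 libraries). The age of the mice is not stated. The labels do not say whether each library came from its own mouse, and the p-values therefore cover the spread among these libraries, whether animal or technical.

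NRF2, encoded by Nfe2l2, is a transcription factor that is held low by KEAP1, a sensor whose cysteines react with electrophiles; itaconate and its derivatives are known as such electrophiles. When the sensor is modified, NRF2 accumulates, pairs with a small MAF protein and binds antioxidant response elements next to genes for glutathione synthesis, thioredoxins, quinone and epoxide detoxification, NADPH supply, heme breakdown and iron storage. In the artery wall these genes are known for limiting oxidant damage to smooth muscle, endothelium and plaque macrophages.

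Levels are given as CPM, reads per 1000000 reads assigned to genes. The kit reads only the 3′ ends of transcripts, so the length of a gene does not enter its level and levels can be set side by side between genes. Libraries held 5077073 to 7281721 reads. Counting error alone would allow 0.412 to 0.591 CPM for a gene with no read, according to the library. The groups differed in what tissue they resembled. The 9 smooth muscle markers summed to between 17145 and 20860 CPM with ITA-LNP and to between 156 and 464 CPM in the libraries labelled control-LNP, although both are labelled aorta. The 10 platelet markers ran the other way, from 139 to 215 CPM against 10711 to 14811 CPM, and the erythroid markers from 2671 to 4331 CPM against 12491 to 45432 CPM. The 7 white adipocyte markers summed to 5762 to 7188 CPM against 51.7 to 345 CPM. Of the 5 that were tested, 2 rose and none fell by limma. Adipoq and Cidec were at 0 reads in every control-LNP library, while Lep was at 0 in all libraries of both groups. The 10 macrophage markers summed to closer values, 586 to 677 CPM against 243 to 538 CPM, and 6 of them rose and 1 fell by limma. Treatment and cell composition therefore cannot be told apart for any gene below, and in bulk tissue neither can fewer cells of a type and less RNA per cell. In control-LNP replicate 2 only 10846 genes had reads, whereas the remaining control-LNP libraries had 14232 to 15333, and its neutrophil markers summed to 27065 CPM against 962 to 10372 CPM. Results are therefore given with and without it.

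The letters that NRF2 and its MAF partner are known to prefer, TGACNNNGC, were looked for on both strands in the 250 bases before each RefSeq start (GRCm38.p6). Windows were at hand for 26 of the 32 genes, and 8 of these held the letters (30.8%), against 14.1% of the 9472 tested genes with a window. The stretches are shown because they are where the factor's letters lie next to genes of its own pathway; each is read 5′ to 3′ on the strand of its gene, with the 9 matching letters in capitals. Ugdh had a pair of matches.
Nfe2l2: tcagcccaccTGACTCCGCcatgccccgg
Mafg: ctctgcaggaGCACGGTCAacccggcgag
Gclm: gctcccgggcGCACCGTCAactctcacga
Txnrd1: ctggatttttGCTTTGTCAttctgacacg
Prdx1: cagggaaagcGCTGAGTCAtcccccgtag
Ugdh: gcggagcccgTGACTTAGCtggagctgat
Ugdh: tcctcaagggGCGTGGTCAtacagttcgg
Gsta3: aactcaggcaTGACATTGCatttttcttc
G6pdx: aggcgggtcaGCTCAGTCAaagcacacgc
The stretches lie at chr2:75704885-75704913 (Nfe2l2, minus strand), chr11:120633751-120633779 (Mafg, minus), chr3:122245413-122245441 (Gclm, plus), chr10:82859104-82859132 (Txnrd1, plus) and chr4:116685456-116685484 (Prdx1, plus). Those of Ugdh lie at chr5:65435956-65435984 and chr5:65435918-65435946 (minus), that of Gsta3 at chr1:21240454-21240482 (plus) and that of G6pdx at chrX:74428919-74428947 (minus). On the GENCODE annotation the second Ugdh stretch and that of G6pdx overlap an exon of their own gene, and those of Nfe2l2 and Mafg overlap exons of the neighbouring E030042O20Rik and Gm17586; the others lie outside annotated exons. The 9 letters began 57 (G6pdx) to 240 (Nfe2l2) bases before the start. The match of Prdx1 also overlaps TGANTCA, the letters of AP-1, a factor of a related family. A match describes letters only and is no evidence of binding.

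With ITA-LNP, 5 of the 30 tested genes rose (16.7%) and 1 fell (3.33%), by limma with Benjamini-Hochberg adjustment and a threshold of 0.05. The genes that rose were Cbr3, Gstm2, Me1, Prdx1 and Ephx1, and the gene that fell was Taldo1. Over all tested genes 10.3% rose and 5.15% fell, so with all libraries the share of the pathway that changed lay near that of any gene. Over all genes 1306 rose and 651 fell; quantile normalization gave 1614 and 1401, and centring each library on its median 741 and 1249. With that centring the 30 genes gave 3 higher and none lower (6 higher and 5 lower at an unadjusted p under 0.05, limma); Cbr3, Gstm2 and Ephx1 kept their calls. The median log2 fold change of the 30 genes was 0.46, against 0.15 for all tested genes, and estimates ran from -2.89 to 4.97 with 18 above 0 and 12 below. Fold changes are on the log2(CPM + 1) scale, which understates the change of low genes, and are positive where ITA-LNP was higher. The range of all 3 ITA-LNP libraries lay above that of the 4 control-LNP libraries for 9 genes and below it for 5, while 16 overlapped; over all tested genes the shares were 19.1% above and 10.7% below.

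**Figure D1:**
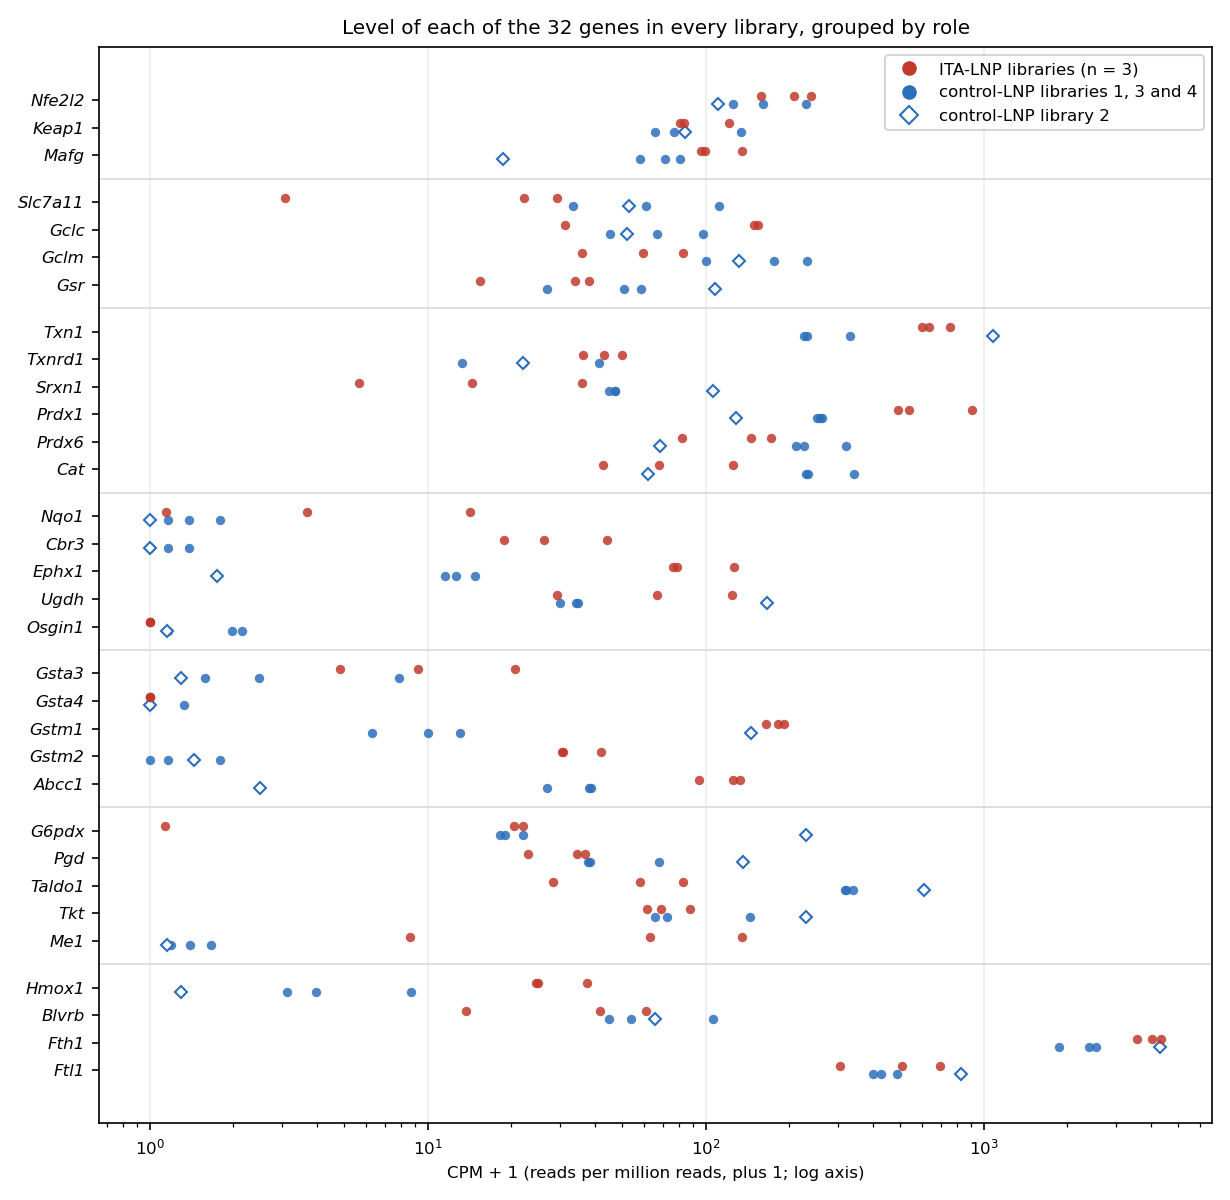
Level of each of the 32 genes in every library, as CPM + 1 on a log axis, with ITA-LNP libraries in red, control-LNP replicates 1, 3 and 4 in blue and control-LNP replicate 2 as an open diamond, and genes grouped by role. The red points of Cbr3, Gstm2, Me1 and Ephx1 lie to the right of all control points and those of Taldo1 to the left, while Nfe2l2, Keap1 and Ftl1 overlap.

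Without control-LNP replicate 2 the count was 10 higher (33.3%) and 3 lower (10%), and all 6 genes changed in the full comparison were among these 13. The added genes were Txn1, Gstm1, Abcc1, Hmox1 and Fth1 as higher and Gclm and Cat as lower. In that comparison 15.4% of all tested genes rose and 16% fell, and the median log2 fold change was 0.54 for the 30 genes and -0.31 for all genes. Replicate 2 was more than 2-fold above the mean of the other control-LNP libraries for 8 of the 30 genes and more than 2-fold below it for 11.

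The sensor and transcription factors did not pass the test in either comparison. Nfe2l2 (chromosome 2, 75675513 to 75704641 on mm10), which encodes NRF2 itself, was at 237, 207 and 158 CPM in ITA-LNP replicates 1, 2 and 3 and, in the same order of replicates, at 228, 110, 124 and 159 CPM with control-LNP. The ranges overlapped, with a log2 fold change of 0.41 ± 0.40 (standard error; limma, adjusted p = 0.566, 95% interval -0.49 to 1.30), so a 2-fold rise of the transcript lies inside the interval. Keap1 (chromosome 9, 21229730 to 21239361), its inhibitor, was at 82.3, 80.0 and 121 CPM against 133, 83.1, 75.8 and 64.8 CPM. Its estimate was 0.11 ± 0.46 (adjusted p = 0.917, limma, interval -0.93 to 1.15). NRF2 is controlled mainly through its protein, which was not measured here. Mafg (chromosome 11, 120625117 to 120633600), one of the small MAF partners, was at 98.0, 135 and 95.03 CPM against 80.0, 17.6, 70.2 and 57.1 CPM. Every ITA-LNP library was above every control-LNP library, but the difference did not pass (1.12 ± 0.62, adjusted p = 0.265, limma). The last 300 bases of Mafg share 124 bases with a transcript of its neighbour Sirt7, which averaged 26.6 CPM against 87.9 CPM. Where in Sirt7 these bases lie was not examined, so whether its reads and those of Mafg could be mixed is not known.

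None of the 4 genes of cystine import and glutathione synthesis passed with all libraries, and 3 had estimates below 0. Their CPM summed to 214 ± 83.0 with ITA-LNP and 347 ± 80.1 with control-LNP (SD, n = 3 and 4). Slc7a11 (chromosome 3, 49892526 to 50443614), the cystine carrier that feeds glutathione synthesis, was at 28.2, 2.06 and 21.3 CPM against 111, 51.9, 32.3 and 59.9 CPM. Its ITA-LNP libraries all lay below the control-LNP libraries, and ITA-LNP replicate 2 lay more than 10-fold under replicates 1 and 3 (-2.22 ± 0.91, adjusted p = 0.137, limma; -1.20 without ITA-LNP replicate 2). Gclm (chromosome 3, 122245557 to 122270732), the modifier subunit of glutamate-cysteine ligase and a classical NRF2 target, was at 58.3, 82.1 and 35.02 CPM against 231, 131, 99.4 and 175 CPM. Again no ITA-LNP library reached a control-LNP library. Its estimate of -1.44 ± 0.50 did not pass with all libraries (adjusted p = 0.0900, limma), and without control-LNP replicate 2 Gclm fell by 1.51 (adjusted p = 0.0288).

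The partner subunit did not follow. Gclc (chromosome 9, 77754535 to 77794485), the catalytic subunit of the same ligase, was at 149, 153 and 30.1 CPM against 44.1, 51.0, 66.0 and 96.8 CPM. ITA-LNP replicates 1 and 2 were above all control-LNP libraries and replicate 3 below them (0.51 ± 0.67, adjusted p = 0.680, limma). Within each library there were 0.393, 0.538 and 1.16 reads of Gclm per read of Gclc with ITA-LNP and 5.23, 2.56, 1.51 and 1.81 with control-LNP. These ratios did not overlap, and a ratio within a library does not depend on the total to which CPM is scaled. The mean difference in the log2 ratio of CPM + 1, the scale on which ratios were tested, was -1.95 (exact two-sided permutation test p = 0.0571, 0.114 adjusted over 8 ratios; 0.0571 is the smallest p that 3 against 4 libraries gave, so no ratio could pass 0.05). Gsr (chromosome 8, 33652523 to 33698163), the reductase that regenerates glutathione, overlapped between groups at 14.4 to 37.2 CPM against 25.9 to 107 CPM (adjusted p = 0.385, limma).

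Among the 6 thioredoxin, peroxiredoxin and catalase genes, Prdx1 rose. Prdx1 (chromosome 4, 116685544 to 116700822), a peroxiredoxin that removes hydrogen peroxide, was at 491, 539 and 906 CPM with ITA-LNP and 251, 127, 261 and 257 CPM with control-LNP. The lowest ITA-LNP library was above the highest control-LNP library. Prdx1 rose by 1.53 ± 0.37 on the log2 scale (adjusted p = 0.0211, limma), and 1.28 without control-LNP replicate 2 (adjusted p = 0.0076). The call was lost without ITA-LNP replicate 2 (adjusted p = 0.0545) or replicate 3 (0.104), and with each library centred on its median (0.763). Pseudogenes Gm21399 and Gm7204, which hold a stretch at least 95% identical to the 3′ end of Prdx1, were at 0 in every library. How reads that match several places were counted is not stated.

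Prdx1 was the only one of the 6 changed genes with the response-element letters before its start. Its promoter is shown up to the first annotated exon base, chr4:116685349-116685543 on the plus strand, 195 bases, with the 9 letters in capitals.
Prdx1: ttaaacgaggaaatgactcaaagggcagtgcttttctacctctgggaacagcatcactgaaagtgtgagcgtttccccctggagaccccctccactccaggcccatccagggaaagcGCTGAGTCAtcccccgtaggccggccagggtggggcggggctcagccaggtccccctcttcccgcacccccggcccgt
Of the 8 genes with the letters, 1 rose and none fell, and their median log2 fold change was 0.66. Of the 17 tested genes with a window but without the letters, 4 rose and 1 fell, with a median of 0.11. No such letters in these 250 bases says nothing of elements farther away, and Hmox1, Gclc and Abcc1 were among the 6 genes for which no window was used.

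The other 5 genes of the thioredoxin and peroxide group did not pass with all libraries. Txn1 (chromosome 4, 57943373 to 57956411), thioredoxin, was at 635, 598 and 754 CPM against 225, 1078, 329 and 231 CPM. Control-LNP replicate 2 was the highest library of all and the other 3 control-LNP libraries the lowest. With all libraries the log2 fold change was 0.84 ± 0.51 (adjusted p = 0.323, limma), and without that replicate Txn1 rose by 1.35 (adjusted p = 0.0030). Txnrd1 (chromosome 10, 82833951 to 82897712), the reductase that recharges thioredoxin, was at 35.1 to 48.9 CPM against 12.3 to 40.2 CPM, with overlap (adjusted p = 0.414, limma). Cat (chromosome 2, 103453849 to 103485160), catalase, was at 67.0, 124 and 41.7 CPM against 341, 60.8, 228 and 232 CPM. It was lower with ITA-LNP than in 3 of the 4 control-LNP libraries (-1.36 ± 0.65, adjusted p = 0.200, limma), and without replicate 2 it fell by 1.88 (adjusted p = 0.0094). Catalase is abundant in red cells, and erythroid markers were higher in every control-LNP library. They summed to 45432, 21685, 12491 and 13202 CPM in control-LNP replicates 1 to 4, and Cat was the lowest of these in replicate 2. The part of red cells in the result was not tested.

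Srxn1 (chromosome 2, 152105516 to 152111376), sulfiredoxin, which repairs over-oxidised peroxiredoxins and is a known NRF2 target, was at 34.8, 13.4 and 4.67 CPM against 43.7, 105, 46.4 and 46.2 CPM. All ITA-LNP libraries were below all control-LNP libraries (-1.996 ± 0.78, adjusted p = 0.125, limma). Prdx6 (chromosome 1, 161240112 to 161251219), a peroxiredoxin that reduces phospholipid peroxides, was at 81.5 to 171 CPM against 67.7 to 319 CPM (-0.50 ± 0.57, adjusted p = 0.6254, limma). Relative to Prdx1 the groups separated: there were 0.294, 0.151 and 0.188 reads of Prdx6 per read of Prdx1 with ITA-LNP and 1.27, 0.532, 0.864 and 0.821 with control-LNP (difference -2.03 on the scale of log2 of CPM + 1, exact permutation p = 0.0571, adjusted 0.114).

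Of the 4 tested quinone, carbonyl and epoxide genes, Cbr3 and Ephx1 rose. Cbr3 (chromosome 16, 93683215 to 93690990), a carbonyl reductase that uses NADPH to reduce aldehydes and quinones, was at 17.9, 25.2 and 43.3 CPM with ITA-LNP and 0, 0, 0.385 and 0.164 CPM with control-LNP. In reads this was 600 against 3, a pooled ratio of 226. The 95% interval of that ratio from counting error alone was 76.8 to 1097, which leaves out the spread between libraries. Cbr3 rose by a log2 fold change of 4.63 ± 0.78 (adjusted p = 0.0033, limma) and 4.58 without control-LNP replicate 2. Ephx1 (chromosome 1, 180976210 to 181020904), microsomal epoxide hydrolase, was at 77.8, 126 and 75.1 CPM against 11.6, 0.748, 10.6 and 13.8 CPM. The groups were far apart, with control-LNP replicate 2 the lowest. The log2 fold change was 3.54 ± 0.90 (adjusted p = 0.0252, limma); without control-LNP replicate 2 it was 2.82 (adjusted p = 0.0013), and without ITA-LNP replicate 1, 2 or 3 it did not pass (adjusted p = 0.0866, 0.116 and 0.0816).

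Nqo1 (chromosome 8, 107388225 to 107403206), NAD(P)H quinone dehydrogenase 1 and a standard readout of NRF2 activity, was low in these aortas. It was at 2.67, 0.147 and 13.2 CPM with ITA-LNP, which is 17, 1 and 96 reads, and at 0.788, 0, 0.385 and 0.164 CPM with control-LNP. ITA-LNP replicates 1 and 3 were above all control-LNP libraries and replicate 2 was within them. Its estimate was 1.58 ± 0.89 (adjusted p = 0.275, limma, interval -0.40 to 3.57), and 2.47 without ITA-LNP replicate 2. Ugdh (chromosome 5, 65413221 to 65435949), which makes UDP-glucuronic acid for conjugation, overlapped at 124, 28.3 and 65.9 CPM against 28.95, 165, 33.9 and 33.1 CPM (adjusted p = 0.830, limma). Osgin1 (chromosome 8, 119434124 to 119446256), an oxidative stress response gene, had no reads with ITA-LNP and 5, 1, 6 and 1 reads with control-LNP. With each ITA-LNP library set to its own limit of 3 reads, the control-LNP mean of 0.613 CPM was 1.39 times the ITA-LNP mean. Control-LNP replicates 2 and 4, at 0.150 and 0.164 CPM, lay below those limits, so no fall can be read from these counts. Osgin1 was below the level required for a test.

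**Figure D2:**
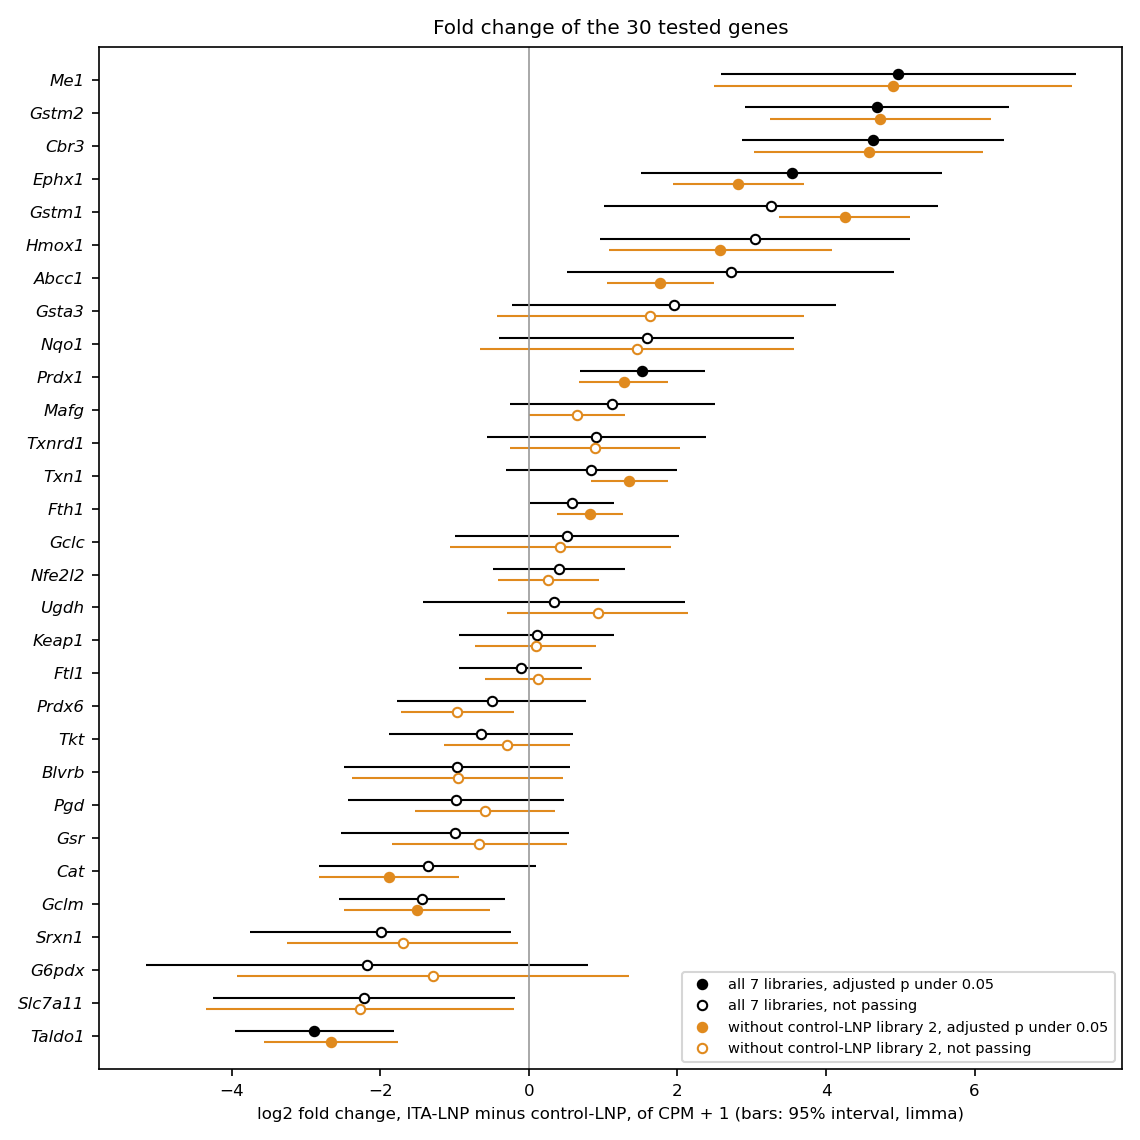
Log2 fold change of CPM + 1, ITA-LNP minus control-LNP, of the 30 tested genes with its 95% interval, from all 7 libraries in black and without control-LNP replicate 2 in orange; filled points have an adjusted p under 0.05. Me1, Gstm2, Cbr3, Ephx1 and Prdx1 are filled on the right and Taldo1 on the left in both, and 7 further genes are filled in orange only.

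Among glutathione transferases and the exporter, Gstm2 rose, and Gstm1 and Abcc1 passed only without control-LNP replicate 2. Gstm2 (chromosome 3, 107981702 to 107986453), a mu-class transferase, was at 41.1, 29.3 and 29.7 CPM with ITA-LNP and 0.788, 0.449, 0 and 0.164 CPM with control-LNP, or 677 reads against 8. No library of one group came near the other. Gstm2 rose by 4.69 ± 0.79 on the log2 scale (adjusted p = 0.0033, limma). Gstm1 (chromosome 3, 108012255 to 108017973), its neighbour in the mu-class cluster, was at 164, 190 and 181 CPM against 5.32, 145, 12.1 and 9.02 CPM. Control-LNP replicate 2 lay close to the ITA-LNP libraries and 16.4 times the mean of the other 3. The log2 fold change was 3.26 ± 1.00 with all libraries (adjusted p = 0.0563, limma) and 4.25 ± 0.38 without that replicate (adjusted p = 0.0002).

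Abcc1 (chromosome 16, 14361558 to 14475737), the transporter MRP1 that exports glutathione conjugates, was at 124, 132 and 93.5 CPM against 37.8, 1.495, 25.8 and 37.1 CPM. The groups did not overlap, and control-LNP replicate 2 was far below the rest. The log2 fold change was 2.71 ± 0.98 (adjusted p = 0.101, limma), and 1.77 ± 0.31 without that replicate (adjusted p = 0.0039). Gsta3 (chromosome 1, 21240589 to 21265661), an alpha-class transferase, was at 19.6, 3.83 and 8.24 CPM against 6.89, 0.299, 0.577 and 1.48 CPM, with overlap through control-LNP replicate 1 (1.95 ± 0.97, adjusted p = 0.219, limma). Gsta4 (chromosome 9, 78182774 to 78209349), which conjugates the lipid peroxidation product 4-hydroxynonenal, had 2 reads in all, both in control-LNP replicate 4, and was not tested. Together the group's genes summed to 339 ± 23.1 CPM with ITA-LNP and 71.1 ± 50.9 CPM with control-LNP (SD, n = 3 and 4), or 45.8 CPM without control-LNP replicate 2.

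The genes of NADPH supply parted in opposite directions. Me1 (chromosome 9, 86581371 to 86695953), cytosolic malic enzyme, which makes NADPH from malate, was at 62.0, 7.66 and 134 CPM with ITA-LNP and 0.394, 0.150, 0.192 and 0.656 CPM with control-LNP, or 1420 reads against 8. The ITA-LNP libraries differed among themselves by a factor of 17.4, yet even the lowest was above all control-LNP libraries. Me1 rose by 4.97 ± 1.06 on the log2 scale (adjusted p = 0.0107, limma), with values from 4.13 without ITA-LNP replicate 3 to 6.11 without ITA-LNP replicate 2. With each library centred on its median the adjusted p was 0.0631. Me1 is also known as a gene of fat cells; the white adipocyte markers summed to 5762, 7188 and 6343 CPM in ITA-LNP replicates 1 to 3, highest in the library where Me1 was lowest, and their part in the result was not tested. An antisense gene, A330041J22Rik, overlaps Me1, and how strand was handled is not stated.

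Taldo1 (chromosome 7, 141392199 to 141402968), transaldolase of the pentose phosphate pathway, was at 27.1, 57.2 and 82.0 CPM with ITA-LNP and 339, 608, 319 and 317 CPM with control-LNP. The highest ITA-LNP library was well under the lowest control-LNP library, and control-LNP replicates 1, 3 and 4 lay within a narrow band. Taldo1 fell by 2.89 ± 0.48 on the log2 scale (adjusted p = 0.0029, limma), and by 2.66 without control-LNP replicate 2 (adjusted p = 0.0018). With each library centred on its median the adjusted p was 0.0557. Neutrophil markers were highest in control-LNP replicate 2, as was Taldo1, and ran from 962 to 10372 CPM over the other 3 control-LNP libraries, in which Taldo1 was at 317 to 339 CPM; their part in the result was not tested.

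The remaining pentose phosphate genes did not pass. G6pdx (chromosome X, 74409483 to 74429194), glucose-6-phosphate dehydrogenase, the first step of the pathway, was at 19.4, 21.1 and 0.137 CPM against 17.1, 229, 21.0 and 18.0 CPM. Its ITA-LNP replicates 1 and 2 matched control-LNP replicates 1, 3 and 4, replicate 3 held 1 read and control-LNP replicate 2 stood more than 10-fold above the others (-2.18 ± 1.33, adjusted p = 0.320, limma; -0.77 without ITA-LNP replicate 3 and -1.29 without control-LNP replicate 2). Pgd (chromosome 4, 149149991 to 149166771), 6-phosphogluconate dehydrogenase, was at 22.0 to 35.8 CPM against 36.8 to 136 CPM, without overlap (-0.98 ± 0.65, adjusted p = 0.367, limma). Tkt (chromosome 14, 30548359 to 30574720), transketolase, was at 60.7 to 87.1 CPM against 64.8 to 229 CPM (-0.64 ± 0.55, adjusted p = 0.508, limma).

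In heme breakdown and iron storage no gene passed with all libraries, and Hmox1 and Fth1 rose without control-LNP replicate 2. Hmox1 (chromosome 8, 75093621 to 75100589), heme oxygenase 1, which opens the heme ring, was at 23.8, 23.4 and 36.4 CPM against 7.68, 0.299, 2.12 and 2.95 CPM. Every ITA-LNP library was above every control-LNP library. The log2 fold change was 3.04 ± 0.93 (adjusted p = 0.0560, limma), and 2.58 without control-LNP replicate 2 (adjusted p = 0.0185). Blvrb (chromosome 7, 27447978 to 27466144), biliverdin reductase B, which red cells carry in quantity, was at 12.7, 40.8 and 60.0 CPM against 105, 64.6, 43.9 and 52.6 CPM, with overlap (-0.97 ± 0.68, adjusted p = 0.395, limma). There were 1.88, 0.574 and 0.606 reads of Hmox1 per read of Blvrb with ITA-LNP and 0.0729, 0.00463, 0.0482 and 0.0561 with control-LNP (difference 4.01 on the scale of log2 of CPM + 1, exact permutation p = 0.0571, adjusted 0.114). The control-LNP ratios rest on only 39, 2, 11 and 18 reads of Hmox1.

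The ferritin subunits were the most abundant of the 32 genes. Fth1 (chromosome 19, 9980598 to 9985098), the heavy chain with ferroxidase activity, was at 3551, 4028 and 4356 CPM against 1862, 4296, 2544 and 2396 CPM. Control-LNP replicate 2 lay within the ITA-LNP range and the other 3 below it (0.59 ± 0.25, adjusted p = 0.156, limma; 0.82 without that replicate, adjusted p = 0.0138). Ftl1 (chromosome 7, 45457944 to 45459884), the light chain, was at 303, 697 and 506 CPM against 399, 827, 488 and 428 CPM, with overlap (-0.11 ± 0.37, adjusted p = 0.891, limma). There were 11.7, 5.78 and 8.61 reads of Fth1 per read of Ftl1 with ITA-LNP and 4.66, 5.20, 5.22 and 5.60 with control-LNP. The ratios did not overlap, although ITA-LNP replicate 2 and control-LNP replicate 4 were close (difference 0.69 on the scale of log2 of CPM + 1, exact permutation p = 0.0571, adjusted 0.114). Pseudogenes with a stretch near-identical to the 3′ end exist for both ferritin genes. Each of those in the table averaged under 0.2 CPM in both groups. The remaining 4 ratios, Keap1 to Nfe2l2, Txnrd1 to Txn1, Gsta3 to Gsta4 and Gstm1 to Gstm2, overlapped between groups (exact permutation p = 0.114 to 0.971).

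**Figure D3:**
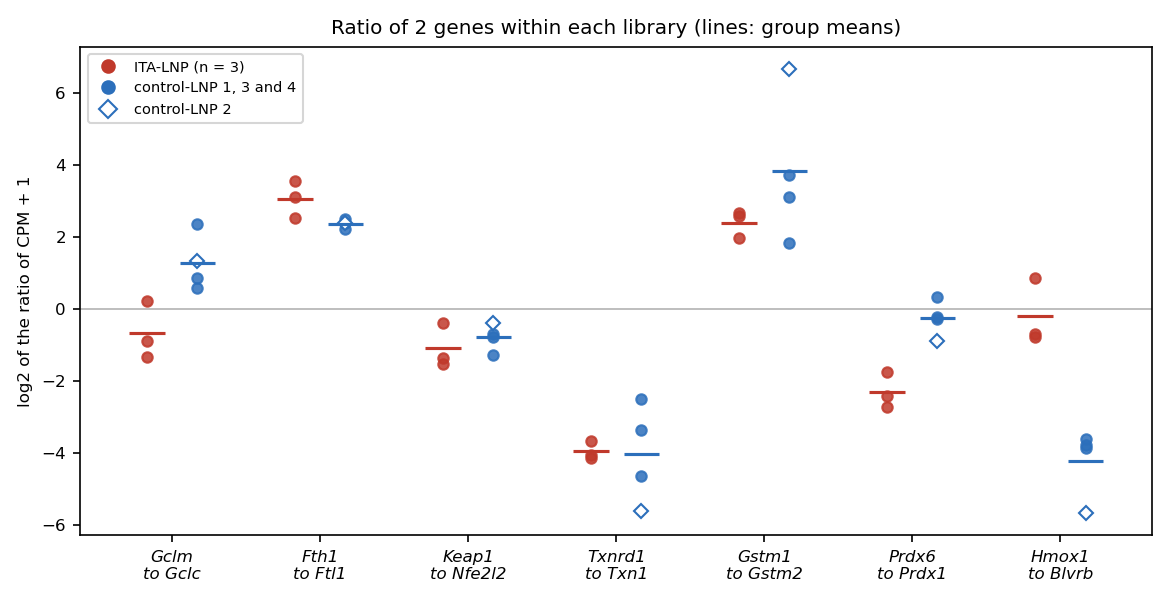
Log2 ratio of CPM + 1 of 2 genes within each library, for 7 pairs, with ITA-LNP libraries in red, control-LNP replicates 1, 3 and 4 in blue, control-LNP replicate 2 as an open diamond and group means as lines. The groups do not overlap for Gclm to Gclc, Fth1 to Ftl1, Prdx6 to Prdx1 and Hmox1 to Blvrb, and they overlap for the other pairs.

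The genes also differed in how evenly they were expressed among the ITA-LNP libraries. The highest of the 3 was more than 2 times the lowest for 16 of the 30 genes and more than 5 times for 7, which were G6pdx, Nqo1, Me1, Slc7a11, Srxn1, Gsta3 and Gclc. Gstm1, at 164 to 190 CPM, and Fth1 were among the steadiest. Over control-LNP replicates 1, 3 and 4 the highest was more than 2 times the lowest for 15 genes.

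The rest of the pathway was read from lists of 135 further genes, of which 118 were tested; 18 rose and 4 fell, beside 10.3% and 5.15% of all tested genes. Without control-LNP replicate 2, 27 of 119 rose and 12 fell, beside 15.4% and 16% of all tested genes. Of the 22 called genes, 7 kept their call when any 1 library was left out. The median log2 fold change of a list ran from -0.24, for glutathione synthesis, turnover and peroxidases, to 0.92, for heme and iron genes. Among 14 regulators and partners of NRF2, 1 rose and 1 fell. Maff, a small MAF protein, averaged 62.2 CPM with ITA-LNP and 3.52 CPM with control-LNP (4.03, adjusted p = 0.0141, limma; lost without ITA-LNP replicate 1 or 3). Bach2, a repressor that competes for the same elements and is known from B cells, averaged 5.07 CPM against 190 CPM (-4.59, adjusted p = 0.0382, limma). By library it was at 11.5, 2.80 and 0.961 CPM against 284, 7.92, 225 and 244 CPM, so the groups overlapped through control-LNP replicate 2. The call of Bach2 was lost without any 1 library other than that replicate. B cell markers were lower in every ITA-LNP library, at 40.6 to 199.5 CPM against 2179 to 4519 CPM, with 2179 CPM in control-LNP replicate 2. Their part was not tested.

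In the glutathione list 4 of 22 genes rose and 2 fell. Gpx3, the secreted glutathione peroxidase, averaged 55.0 CPM against 0.811 CPM (4.88, adjusted p = 0.0043, limma), and Gpx8, a peroxidase of the endoplasmic reticulum, 35.3 CPM against 0.128 CPM (4.85, adjusted p = 0.0032, limma). Gpx4, which reduces lipid peroxides in membranes, went the other way, at 36.4 CPM against 172 CPM (-2.05, adjusted p = 0.0380, limma). Its call was lost without any 1 library other than control-LNP replicate 2. The same held for Oplah, which recycles 5-oxoproline, at 0.239 CPM against 9.06 CPM (-2.94, adjusted p = 0.0288, limma). Among 14 further glutathione transferases 2 rose, Gstt3 at 27.1 CPM against 0.476 CPM (adjusted p = 0.0210, limma; lost without control-LNP replicate 1, 3 or 4) and the microsomal Mgst3 at 18.1 CPM against 1.31 CPM (adjusted p = 0.0379, limma; lost without any 1 library other than control-LNP replicate 2).

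On the log2(CPM + 1) scale the largest rises of the pathway lay outside the 32 genes. That scale understates the change of low genes, Cbr3 and Me1 among them. Sod3, the superoxide dismutase of the extracellular space, which vascular smooth muscle secretes, was at 980, 1039 and 998 CPM against 11.0, 10.3, 9.04 and 5.90 CPM (6.67 ± 0.47, adjusted p = 3.79e-05, limma). Msrb3, a methionine sulfoxide reductase, averaged 239 CPM against 1.33 CPM (6.72, adjusted p = 0.0003, limma). They led a list of 21 thioredoxin, peroxiredoxin, superoxide and repair genes in which 4 rose and none fell by limma (1 fell without control-LNP replicate 2). Cyp1b1, a cytochrome P450, averaged 186 CPM against 0.513 CPM (6.88, adjusted p = 0.0005, limma). All 3 were at 11.0 CPM or less in every control-LNP library, in which the smooth muscle markers were low too; their part was not tested.

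In the list of 19 detoxification enzymes and exporters 3 rose and 1 fell. Besides Cyp1b1, Abcc3, an exporter of conjugates, averaged 14.7 CPM against 0.581 CPM (3.32, adjusted p = 0.0176, limma; lost without control-LNP replicate 1, 3 or 4). Aldh2, mitochondrial aldehyde dehydrogenase, fell by 0.98, at 546 CPM against 1077 CPM (adjusted p = 0.0395, limma; lost in 5 of the 7 comparisons that leave out 1 library). H6pd, the hexose-6-phosphate dehydrogenase of the endoplasmic reticulum, was the only one of 13 NADPH genes to rise (3.39, adjusted p = 0.0373, limma; lost in 6 of 7). In the heme and iron list 3 of 15 rose, among them Slc48a1, a heme transporter, at 203 CPM against 40.0 CPM (adjusted p = 0.0137, limma; lost without ITA-LNP replicate 2 or 3). Steap3, a ferrireductase, averaged 42.0 CPM against 2.26 CPM (adjusted p = 0.0129, limma; lost without ITA-LNP replicate 1).

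**Figure D4:**
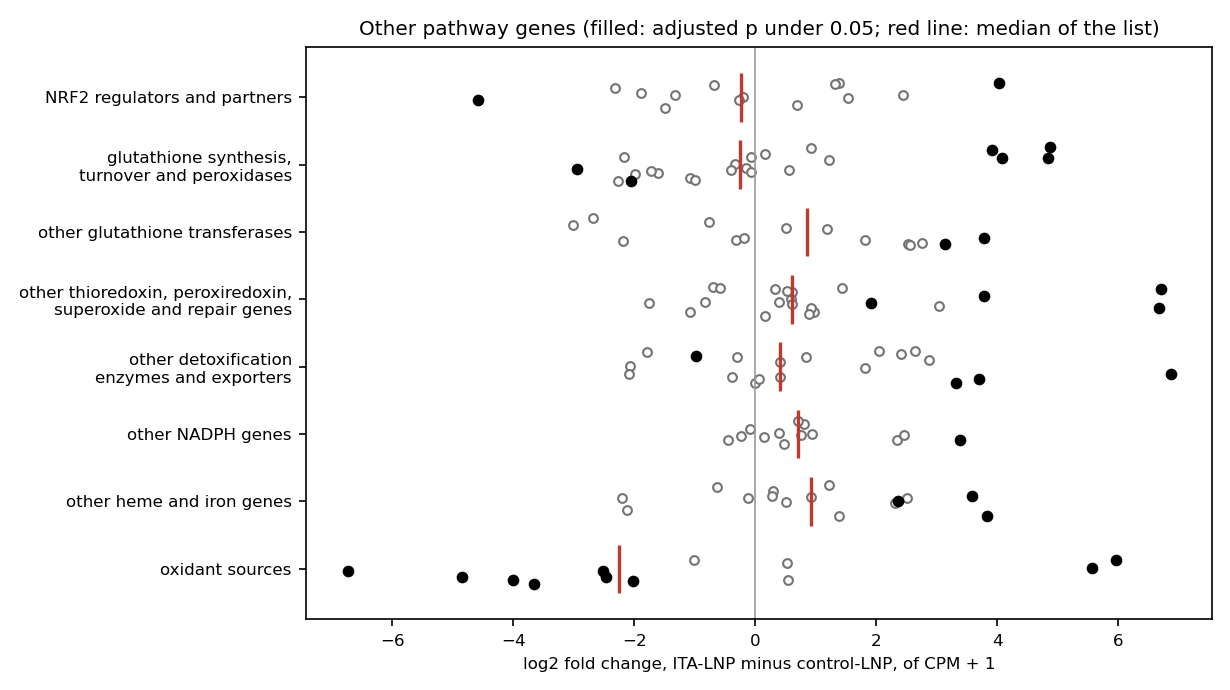
Log2 fold change of CPM + 1, ITA-LNP minus control-LNP, of each tested gene in 7 lists of the wider pathway and a list of oxidant sources; filled points have an adjusted p under 0.05 and red lines mark list medians. Pathway medians lie between -0.24 and 0.92, and the oxidant sources split into 7 lower and 2 higher genes.

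Of 12 tested genes that make oxidants, 7 fell and 2 rose, where 5.15% of all tested genes fell and 10.3% rose; the median log2 fold change of the 12 was -2.25. Alox12, the lipoxygenase of platelets, was at 4.08, 7.81 and 28.0 CPM against 1406, 1229, 915 and 1172 CPM (-6.74, adjusted p = 0.0001, limma), and Rac2, a GTPase of the leukocyte NADPH oxidase, averaged 36.4 CPM against 619 CPM (-4.005, adjusted p = 0.0006, limma). Nox4, the oxidase of vascular wall cells, was at 345, 370 and 337 CPM against 9.06, 2.24, 3.65 and 5.41 CPM (5.98, adjusted p = 0.0003, limma), and Nos3, the nitric oxide synthase of endothelium, averaged 78.4 CPM against 0.699 CPM (5.58, adjusted p = 0.0017, limma). Summed platelet, neutrophil, B cell and T cell markers were lower in the same ITA-LNP libraries. Summed smooth muscle, matrix, endothelial and macrophage markers were higher there, although 1 macrophage marker fell by limma. Here too treatment and cell composition cannot be told apart.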

How the data were processed

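The 32 genes, the gene lists and the comparisons were chosen with earlier results of these data known, so they are described by counts and medians beside all tested genes. Per the labels' protocols, RNA from whole abdominal aortas was made into libraries with a QuantSeq 3′ kit from 500 ng of total RNA. Per the submitters' processing notes, mm10 was the build used; the aligner, counter, annotation and strand setting are not given by the sources at hand. The deposited values are on a log10 scale. Their columns sum to 1000000 after raising 10 to each value and subtracting 1, so they were read as log10(CPM + 1). Of all values, 100% were whole reads within a tolerance of 0.01, which gave the depths.

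Groups and replicate numbers came from the sample titles. The test was limma-trend (limma 3.58.1, R 4.3.3) on log2(CPM + 1), a pseudocount of 1 CPM, for ITA-LNP against control-LNP with no covariate. Genes needed a mean log2(CPM + 1) of at least 1. P-values were two-sided with Benjamini-Hochberg adjustment over all 12636 genes tested. The procedure was tested on simulated data that held no deviant library and no shift in cell composition. That test therefore does not cover these features of the real libraries. The ratios of 2 genes were tested by exact permutation in scipy 1.17.1. All 32 genes are reported; of each further list, the 2 genes with the smallest p in each direction among those called were named. Some genes of these lists are not reported here by name; they stayed in the tests and counts. Coordinates are from GENCODE M21 (mm10), and promoter windows from RefSeq (GRCm38.p6). Samples with the same replicate number did not deviate together (correlations 0.0053, -0.0105 and -0.0173), so replicate numbers were not used as pairs. Alternatives were other filters, pseudocounts, scalings, variance priors and sample weights, limma-voom on the recovered reads (1270 genes higher and 498 lower), a replicate block and leaving out each library. Tables were handled with Python 3.11.15 and pandas 2.3.3.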

Additional observations from a re-analysis of the deposited data

Results flagged for a closer look

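For 7 of the 30 tested genes (23.3%), control-LNP replicate 2 lay farther from the other 3 control-LNP libraries than Dixon's 95% limit allows; by chance about 1 in 20 groups would be so marked. Over all tested genes, the share with any control-LNP library beyond that limit was 29.4%. The share for replicate 2 alone was not counted. In control-LNP replicate 2, 4 genes were the highest of the group. Srxn1 was at 105 CPM against 43.7 to 46.4 CPM in the others, Ugdh at 165 CPM against 28.95 to 33.9 CPM, G6pdx at 229 CPM against 17.1 to 21.0 CPM, and Taldo1 at 608 CPM against 317 to 339 CPM. Another 3 genes were the lowest. Prdx1 was at 127 CPM against 251 to 261 CPM, Ephx1 at 0.748 CPM against 10.6 to 13.8 CPM, and Abcc1 at 1.495 CPM against 25.8 to 37.8 CPM. Prdx1, Ephx1 and Taldo1 passed the test with and without this library.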

How the results depend on the processing

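The count of genes that rose, 5 of 30, was 3 with median centring, 9 with median centring and without control-LNP replicate 2, 3 with a replicate block, 10 with sample weights, and 3 to 10 when 1 library was left out (3 without ITA-LNP replicate 2 or 3, 10 without control-LNP replicate 2). The count that fell, 1, was 0 with median centring (5 at an unadjusted p under 0.05; limma-voom, run without centring, gave 1), 4 with median centring and without control-LNP replicate 2, 4 with quantile normalization, 5 with sample weights, 2 at an adjusted p under 0.1, and 1 to 3 when 1 library was left out (3 without control-LNP replicate 2). The cause was not tested. Median centring moved the median of all genes by -1.13. With it, estimates that were above 0 turned below: Nfe2l2 -0.72, Keap1 -1.02, Mafg -0.0062, Gclc -0.61, Txn1 -0.29, Txnrd1 -0.22, Ugdh -0.79 and Fth1 -0.54. Keap1 was -0.14 with median centring and without control-LNP replicate 2, -0.027 with the replicate block, and -0.081 to 0.32 when 1 library was left out. Ftl1 was 0.040 with sample weights and -0.39 to 0.21, and Ugdh -0.16 to 0.93, when 1 library was left out. The difference in the ratio of Txnrd1 to Txn1 was -0.015 with a pseudocount of 4 CPM and -0.46 to 0.58 when 1 library was left out. None of these reversed values passed the test. Among the called genes, Prdx1 was lost with median centring (adjusted p = 0.763), the replicate block (0.0630) and a variance prior without the trend (0.135), Ephx1 with the replicate block (0.0805), and Taldo1 and Me1 with median centring (0.0557 and 0.0631). The replicate block changed no other call of the 30 genes. Fold changes of Cbr3, Gstm2 and Me1, which have few control-LNP reads, depend on the pseudocount: 6.25, 5.99 and 6.16 at 0.25 CPM, and 2.91, 3.09 and 3.45 at 4 CPM. Depth limits Nqo1, Osgin1 and Gsta4, which had few reads or none in several libraries. Over all tested genes, 1306 rose and 651 fell. The number that rose was 741 with median centring, 738 with the replicate block, 2100 with sample weights and 1988 without control-LNP replicate 2. The number that fell was 1249 with median centring, 2548 with median centring and without control-LNP replicate 2, 1401 with quantile normalization, 322 with the replicate block, 2243 with sample weights, 2065 without control-LNP replicate 2, 411 without replicate 3 and 401 without replicate 4.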
